A study of Mus musculus with 7 samples.

Results

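Serine palmitoyltransferase (SPT) catalyses the first and rate-limiting step of sphingolipid synthesis, and its RNA was examined here in growing mouse oocytes together with that of the ORMDL proteins that hold the enzyme in check. The genes were taken by name: Sptlc1, Sptlc2 and Sptlc3 (large subunits), Sptssa and Sptssb (small subunits), and Ormdl1, Ormdl2 and Ormdl3. All 8 were found among the 26019 gene rows of the deposited table. They were put forward as a group with the KO and WT values in view, so their differences between the groups are a description of these libraries and support nothing by themselves.

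The libraries came from oocytes of secondary follicles of C57BL/6J mice, where layers of granulosa cells enclose the growing oocyte, and each was made from 5 pooled oocytes by Smart-Seq2, which amplifies full-length cDNA. The groups, named by the library titles, were wild type (WT, n = 4 libraries) and knockout (KO, n = 3 libraries). The labels do not settle the deletion: Mfn2 stands in the series title and design, but Mfn1-/- in the KO genotype label and the collection protocol. Mice of both groups were 8 weeks old by that protocol, although every library carries the age label P1. The design counts 3 mice in each group, but WT has 4 libraries. The sources used here name no promoter or Cre line for the deletion, nor the mouse behind each library, so p-values measure the spread between these libraries, which may be technical.

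SPT joins serine to palmitoyl-CoA in the membrane of the endoplasmic reticulum. The active site is formed by SPTLC1 with SPTLC2 or SPTLC3, a small subunit (SSSPTA or SSSPTB) raises its activity and shapes which fatty acyl chain it takes, and ORMDL proteins inhibit the complex when ceramide is plentiful. The products are reduced and acylated to ceramide, a lipid long studied in oocytes because it can promote their death and because sphingosine 1-phosphate, made from it, protects them.

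The normalised counts used below are gene counts divided by a size factor per library, all of which were near 1, so a value is close to a number of reads. Each library held between 6676076 and 8343915 recovered reads. All 12 oocyte markers examined were present in every library, led by Zp3 with 32430 to 82461 normalised counts. They summed to 177006 to 237458 in WT and to 204914, 326078 and 239130 in KO 1 to 3. Of the 12, 1 passed the threshold (limma), beside 6.71% of all tested genes. It was the germ cell helicase gene Ddx4, which rose from 785 ± 165 to 1904 ± 535 (limma adjusted p = 0.00287). Nlrp5, a subcortical maternal complex gene, also had every KO library above WT, with 12964 ± 2889 and 26789 ± 8902 (limma adjusted p = 0.0976). Mfn2 had 35.3, 35.1, 15.0 and 29.2 in WT 1 to 4 and 7.27, 4.55 and 7.66 in KO 1 to 3 (limma adjusted p = 0.00571), and Mfn1 did not differ past the threshold (limma adjusted p = 0.499), so the KO libraries match the series title. KO 2 and KO 3 held more RNA of a list of 18 granulosa cell markers, with summed normalised counts of 5199 and 4572 against 3781 in KO 1 and 3089 to 4199 in WT. Most of that sum was Serpine2. Without it, an omission made after its values were seen, the sums were 454 to 517 in WT, 516 in KO 1, 925 in KO 2 and 888 in KO 3. Much of the higher sums was Inha, at 66.7, 18.1, 23.4 and 11.9 in WT and 54.5, 395 and 338 in KO. Cyp19a1 (means of 179 in WT and 78.2 in KO) and Inhba (4.38 and 1.21) went the other way. The mean log2 level over the 18 markers was 2.46 to 3.53 in WT, 3.57 in KO 1, 4.66 in KO 2 and 4.54 in KO 3. Of the 18 markers, 3 to 7 were at 0 in each WT library, 2 in KO 1, 0 in KO 2 and 1 in KO 3. Amh, a defining granulosa product, was at 0 in WT 2, WT 3 and WT 4, at 0.953 in WT 1 and 0.908 in KO 1, and at 8.18 and 7.66 in KO 2 and KO 3. Theca and stroma markers summed to 22.9 to 45.8 in WT and 39.1 to 43.6 in KO, and blood and endothelial markers to 142 to 194 and 132 to 184. In the granulosa list 1 of 15 tested markers was called, Cyp19a1, which was lower in KO (limma), near the share of 6.71% among all tested genes.

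Upstream sequence is shown for the 4 genes whose KO and WT libraries stood furthest apart, Sptlc2 and Sptssb (lower in KO) and Sptssa and Ormdl1 (higher in KO). It comes from RefSeq on GRCm38.p6, is written in the gene's own direction and is trimmed to lie outside annotated exons and other genes, so that the Sptssb stretch stops short of the RefSeq start. Capitals mark matches, on either strand, to TAATTG (a homeodomain core that the oocyte factor NOBOX can bind), CCAAT and GGGCGG (a GC box).
Sptlc2, chr12:87388356-87388605, minus strand: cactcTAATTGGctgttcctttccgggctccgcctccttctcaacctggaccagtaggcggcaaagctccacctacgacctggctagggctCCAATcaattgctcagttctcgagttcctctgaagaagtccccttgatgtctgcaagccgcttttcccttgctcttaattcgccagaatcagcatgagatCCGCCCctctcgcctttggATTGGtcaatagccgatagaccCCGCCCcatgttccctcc
Sptssb, chr3:69859941-69860144, minus strand: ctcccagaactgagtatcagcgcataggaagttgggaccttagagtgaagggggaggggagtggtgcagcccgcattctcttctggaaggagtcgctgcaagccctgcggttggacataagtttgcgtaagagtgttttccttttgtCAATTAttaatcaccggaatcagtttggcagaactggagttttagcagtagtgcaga
Sptssa, chr12:54656574-54656822, minus strand: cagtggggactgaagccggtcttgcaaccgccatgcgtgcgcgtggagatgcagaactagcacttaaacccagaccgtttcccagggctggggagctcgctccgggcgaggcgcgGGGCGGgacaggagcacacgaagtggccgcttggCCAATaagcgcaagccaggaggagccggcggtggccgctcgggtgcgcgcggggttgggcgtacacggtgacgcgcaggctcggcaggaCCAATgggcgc
Ormdl1, chr1:53297019-53297094, plus strand: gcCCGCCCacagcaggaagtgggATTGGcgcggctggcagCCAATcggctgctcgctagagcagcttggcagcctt

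The Ormdl1 stretch is only 76 bases long because it is all that lies between Ormdl1 and the oppositely directed gene Pms1. In the full 250 bases upstream of the RefSeq starts, TAATTG was found once each in Sptlc2 and Sptssb and in none of the other 6 genes, against 7.17% of 32851 promoters of the same length. The match in Sptlc2 begins 245 bases upstream of the RefSeq start and shares bases with a CCAAT on the opposite strand, and the match in Sptssb begins 103 bases upstream on the opposite strand. A match describes letters only, and no binding was measured. CCAAT was found in Sptlc1, Sptlc2, Sptssa, Ormdl1 and Ormdl2 (33.8% of promoters) and GGGCGG in all but Sptlc3 (32.7%). CANNTG, the E-box core, was in 5 of the 8, with 3 matches in Ormdl3 (66.2% of promoters). The cyclic AMP response element TGACGTCA was found in Ormdl3 alone (1.55% of promoters), and TATAAA and CACGTG in none of the 8 (12.4% and 6.02% of promoters). The Ormdl3 stretch runs from 98587246 to 98587495, but GENCODE places the start of this minus-strand gene at 98587368. The TGACGTCA, close to the RefSeq start, therefore lies inside the gene by GENCODE. The 250 bases held 28 CpG dinucleotides in Sptssa, 25 in Ormdl1, 22 in Sptlc1, 18 in Ormdl3, 17 in Ormdl2, 11 in Sptlc2, 9 in Sptssb and 1 in Sptlc3, where the median promoter held 6.

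In the fit over all 19227 tested genes, 4 of the 8 genes passed the threshold (limma, Benjamini-Hochberg adjusted p under 0.05), Sptssa and Ormdl1 higher and Sptlc2 and Sptssb lower in KO, beside 6.71% of all tested genes (3.09% higher and 3.63% lower). The groups did not overlap in 5 of the 8, these 4 and Ormdl3, beside 19.2% of all tested genes (9.37% with every KO library above and 9.83% with every KO library below). Because the genes were chosen on this contrast, nothing is read from these counts. All 8 passed the filter on low values. Fold changes are KO over WT on the log2(value + 1) scale, which understates the change of low genes, and SE is the standard error from that fit.

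**Figure D1:**
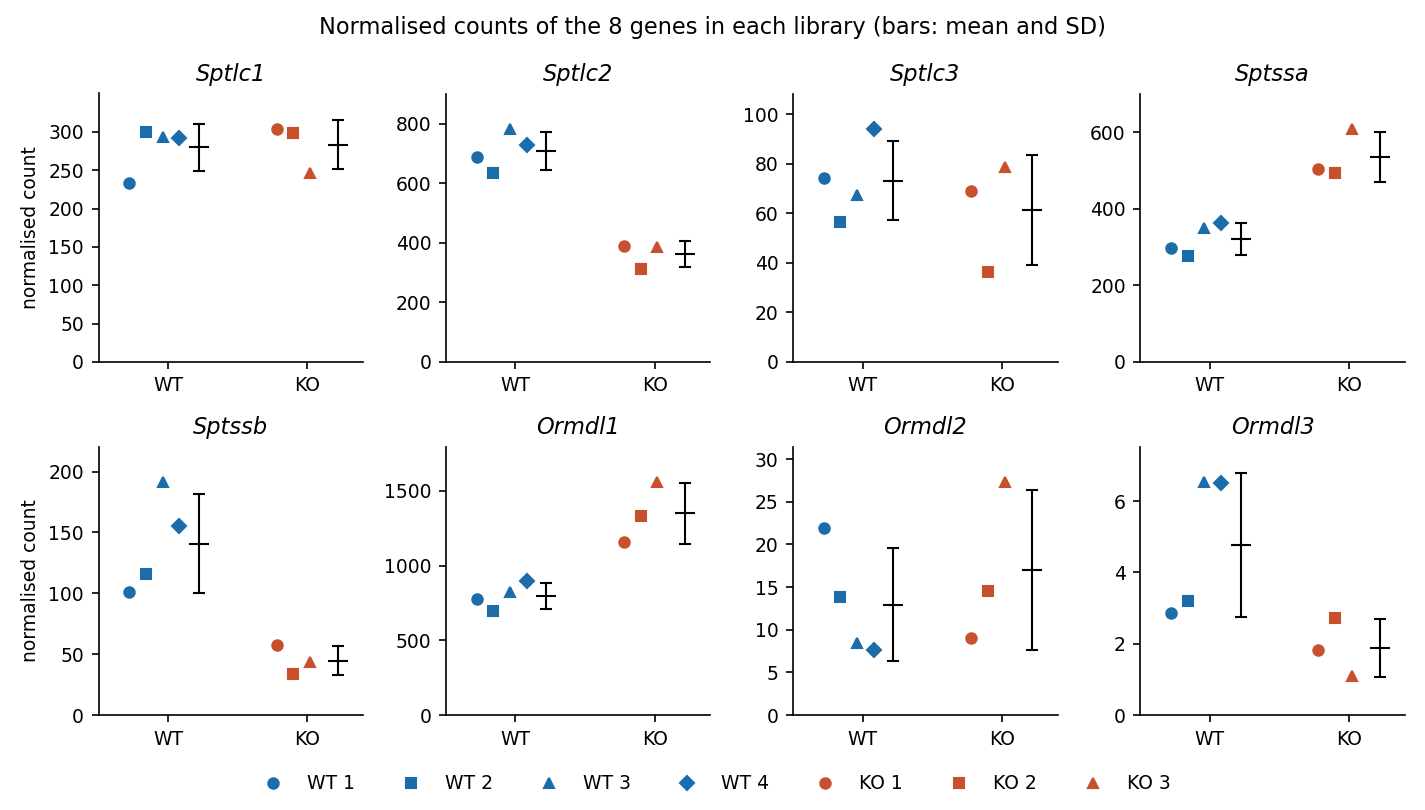
Normalised counts of the 8 genes (vertical axes, starting at 0) in each WT and KO library (points, 4 and 3 per group), with mean and SD beside them. The KO points lie wholly below the WT points for Sptlc2, Sptssb and Ormdl3, wholly above them for Sptssa and Ormdl1, and among them for Sptlc1, Sptlc3 and Ormdl2.

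Among the large subunits, Sptlc2 stood apart from its partner Sptlc1. Sptlc1 (ENSMUSG00000021468.8; GRCm38 chromosome 13, 53332748 to 53377397, minus strand) encodes the subunit common to all SPT complexes. It had 234, 300.4, 293 and 291 normalised counts in WT 1 to 4 and 304, 299 and 246 in KO 1 to 3. The groups overlapped throughout, with a WT mean of 279.7 ± 31.0 (SD, n = 4, as for all WT means below) and a KO mean of 283 ± 32.2 (SD, n = 3, likewise). The log2 fold change was 0.02, SE 0.16, and it was -0.07 without WT 1, the lowest WT library.

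Sptlc2 (ENSMUSG00000021036.10; chromosome 12, 87305058 to 87388355, minus strand) encodes the subunit that carries the catalytic lysine. Its values were 688, 634, 783 and 727 in WT and 389, 311 and 384 in KO. Every KO library lay below every WT library, and the spread within each group was small beside the gap. The mean was 708 ± 63.0 in WT and 361 ± 43.6 in KO, 1.96-fold lower (log2 fold change -0.97, SE 0.15). A lincRNA row inside the gene, Gm26764, held at most 4.26 normalised counts in any library.

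Sptlc3 (ENSMUSG00000039092.9; chromosome 2, 139493913 to 139637674, plus strand) encodes an alternative to SPTLC2 that favours other acyl chain lengths. It had 74.4, 56.5, 67.3 and 94.2 in WT and 69.0, 36.4 and 78.8 in KO. KO 2 was the lowest library and WT 4 the highest, with the others intermixed (log2 fold change -0.30, SE 0.27, and 0.04 without KO 2).

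The small subunits differed in opposite directions. Sptssa (ENSMUSG00000044408.7; chromosome 12, 54645392 to 54656573, minus strand) had 298, 276, 351 and 364 in WT and 503, 495 and 610.4 in KO. All KO libraries exceeded all WT libraries, with means of 322 ± 42.1 and 536 ± 64.5, a 1.66-fold higher level (log2 fold change 0.73, SE 0.16).

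Sptssb (ENSMUSG00000043461.13; chromosome 3, 69819542 to 69859940, minus strand) encodes the small subunit known for letting SPT accept longer acyl chains. It had 101, 116, 192 and 155 in WT and 57.2, 33.6 and 43.8 in KO. The lowest WT library still held more than the highest KO library, although WT itself varied widely. The means were 141 ± 40.7 and 44.9 ± 11.8, 3.14-fold lower in KO, the largest difference of the 8 genes on the fitted scale (log2 fold change -1.62, SE 0.25).

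Of the ORMDL genes, Ormdl1 held almost all of the counted RNA, although the count of Ormdl2 is uncertain, as given below. Ormdl1 (ENSMUSG00000026097.9; chromosome 1, 53297095 to 53310309, plus strand) had 780, 693, 824 and 898 in WT and 1156, 1331 and 1561 in KO. The groups were fully separated, at 799 ± 85.5 and 1349.5 ± 203, 1.69-fold higher in KO (log2 fold change 0.75, SE 0.14). An overlapping row, Gm28778, which shares 7.27% of the 75-base stretches of Ormdl1 transcripts, was at 0 in all libraries but WT 2, where it held 2.13 normalised counts.

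Ormdl2 (ENSMUSG00000025353.5; chromosome 10, 128817902 to 128821645, minus strand) had 21.9, 13.8, 8.41 and 7.58 in WT and 9.08, 14.5 and 27.3 in KO, with no separation (log2 fold change 0.35, SE 0.45, and -0.04 without KO 3). Its count is uncertain, because 59.2% of the 75-base stretches of its transcripts also occur in those of Dnajc14, a chaperone gene on the other strand, and the library kit does not mark strand. Dnajc14 itself had 1446, 1439, 1455 and 1789 in WT and 1290, 1194 and 1115 in KO, every KO library below every WT library.

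Ormdl3 (ENSMUSG00000038150.7; chromosome 11, 98581256 to 98587368, minus strand), known in humans as a childhood asthma locus, had 2.86, 3.20, 6.54 and 6.50 in WT and 1.82, 2.73 and 1.09 in KO. These are 3, 3, 7 and 6 reads against 2, 3 and 1, so WT 1, WT 2 and KO 2 held the same number of reads and the separation of the normalised values rests on their size factors (log2 fold change -0.97, SE 0.56).

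In KO 1, summed granulosa marker RNA lay inside the WT range and the mean log2 marker level just above it. For Sptlc2, Sptssa, Sptssb and Ormdl1, KO 1 fell outside the WT range on the same side as KO 2 and KO 3. Leaving out KO 2 and KO 3 gave log2 fold changes of -0.86 for Sptlc2, 0.65 for Sptssa, -1.24 for Sptssb and 0.54 for Ormdl1. Only Sptlc2 of the 8 then passed the threshold, in a fit where the variance comes from the WT libraries alone. Mean granulosa marker level was higher in every KO library than in any WT library. When it entered the fit as a covariate, 0 of the 8 passed in limma (3 at an unadjusted p under 0.05). Only 2 genes in all passed in that fit, in place of 1291, so it cannot separate the marker level from the group. With the covariate the log2 fold changes were -0.91 for Sptlc2, 0.62 for Sptssa, -1.13 for Sptssb and 0.48 for Ormdl1. Their signs were the same as without it, but the 4 genes were chosen on this contrast, so nothing is read from that. The part of granulosa RNA in these 4 differences was not tested. In these pooled oocytes, fewer cells of a type and less RNA per cell cannot be told apart.

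Ratios of 2 genes were then compared within each library. They were taken between normalised counts, not per length, so they compare libraries and not the levels of the genes. Ratios per library are plain quotients, and differences between the groups are means of log2 ratios with 1 added to each value. Sptlc2 over Sptlc1 was 2.95, 2.11, 2.67 and 2.49 in WT 1 to 4 and 1.28, 1.04 and 1.56 in KO 1 to 3. The ratio thus lay lower in every KO library, by 0.99 on the log2 scale on average. Sptssa over Sptssb was 2.95, 2.38, 1.83 and 2.35 in WT and 8.79, 14.7 and 13.9 in KO. This pair gave the widest gap of the 6 ratios, 2.35 log2 units, since its members differed in opposite directions.

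The sum of the 3 Ormdl genes, the inhibitors, over that of the 3 large subunit genes was 0.808, 0.717, 0.734 and 0.820 in WT and 1.53, 2.09 and 2.24 in KO. The ratio was higher in every KO library, by 1.33 on the log2 scale on average, and was lowest of the KO libraries in KO 1. Ormdl1 over Ormdl3 was also separated (log2 difference 1.72), but with Ormdl3 at no more than 7 reads its size depended on the number added, being 2.09 with 0 and 1.24 with 5. Sptlc3 over Sptlc2 (log2 difference 0.68) and Ormdl1 over Ormdl2 (0.40) overlapped between the groups. No test was made on these ratios, since they come from the values that chose the genes.

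**Figure D2:**
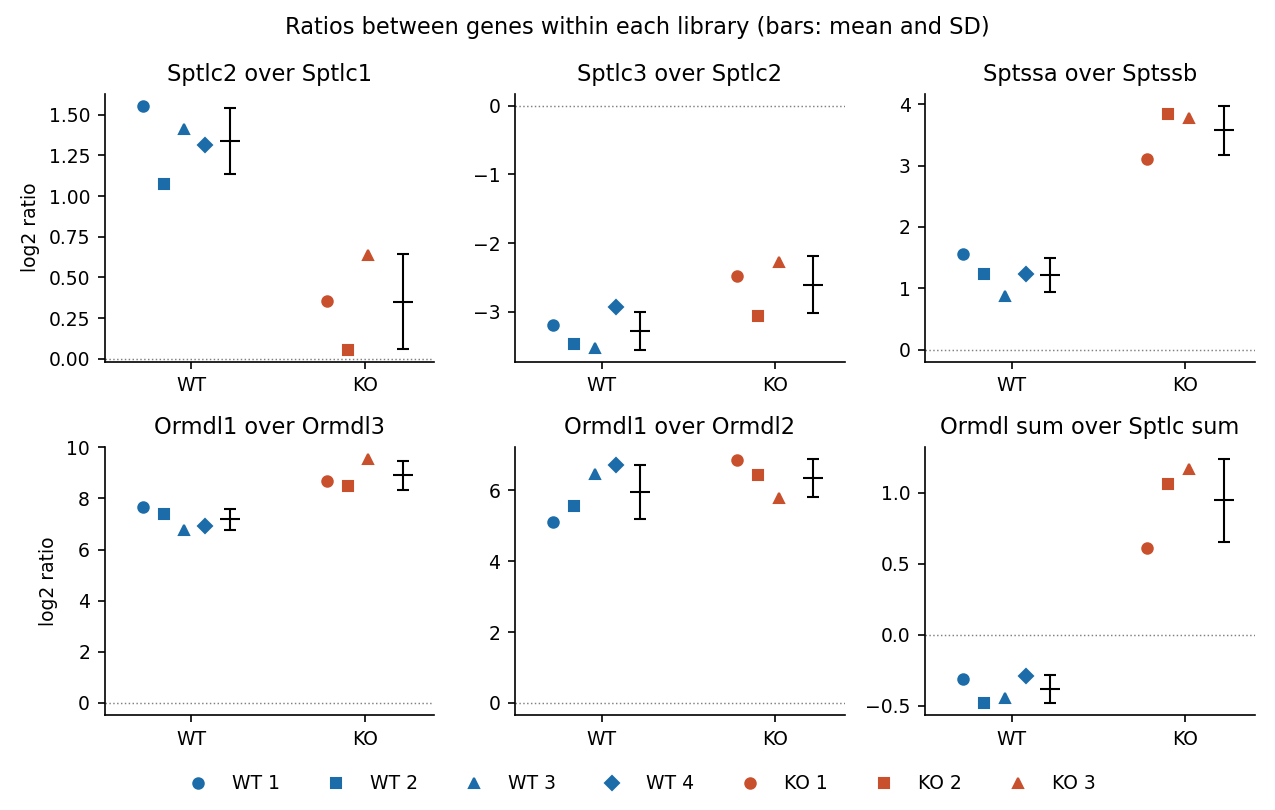
Log2 ratios between pairs of genes, or sums of genes, within each WT and KO library (points), with mean and SD and a dotted line at equal counts. Sptlc2 over Sptlc1, Sptssa over Sptssb, Ormdl1 over Ormdl3 and the Ormdl over Sptlc sum separate the groups, while Sptlc3 over Sptlc2 and Ormdl1 over Ormdl2 overlap. Counts are not per length, so the dotted line does not mark equal levels.

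Levels were compared between genes per kilobase of annotated exon (GENCODE release M21, union of all exons). In WT the order was Sptssa (212 ± 27.7 normalised counts per kilobase), Ormdl1 (169.6 ± 18.2), Sptlc2 (87.2 ± 7.77), Sptlc1 (78.7 ± 8.71), Sptssb (77.2 ± 22.3), Sptlc3 (25.7 ± 5.59), Ormdl2 (7.75 ± 3.95) and Ormdl3 (2.19 ± 0.926). Sptssa and Ormdl1 overlapped in WT, as did Sptlc2, Sptlc1 and Sptssb, while each of the other steps between neighbours exceeded the range of the libraries. The order depends on the length used, and the place of Ormdl2 rests on its uncertain count. Per kilobase of the longest coding transcript, Ormdl1 came first at 418 ± 44.8 and Sptssa next at 239.5 ± 31.3, with no overlap, and Sptlc1 (107 ± 11.9) stood level with Sptlc2 (105.5 ± 9.39).

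In KO the levels of Sptlc2 and Sptlc1 no longer overlapped, by either length. Per kilobase of exon union, Sptlc1 stood at 79.6 ± 9.05, whereas Sptlc2 stood at 44.5 ± 5.38, and Sptssb, at 24.6 ± 6.48, reached the range of Sptlc3 (21.6 ± 7.81). As a share of the small subunit level per kilobase, Sptssb made up 22.0%, 25.9%, 31.2% and 26.1% in WT and 8.64%, 5.35% and 5.62% in KO. Sptlc2 made up 45.6% ± 2.65 of the large subunit level in WT and 30.5% ± 2.24 in KO. Ormdl1 made up 94.4% ± 1.91 in WT and 96.4% ± 1.19 in KO of the counted ORMDL level, with overlapping libraries. That share rests on the uncertain count of Ormdl2.

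**Figure D3:**
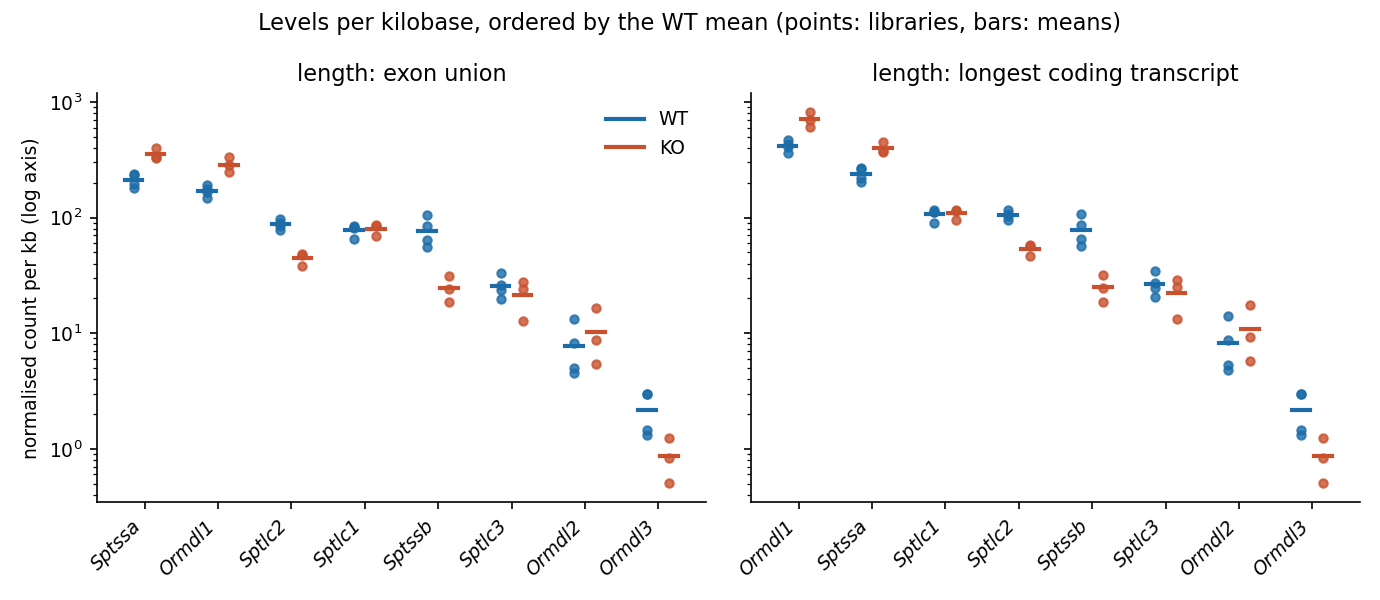
Normalised counts per kilobase (log axis) of the 8 genes in WT and KO libraries (points) with group means (bars), ordered by the WT mean, for 2 definitions of gene length. Sptssa and Ormdl1 lead under both, and Ormdl2 and Ormdl3 come last.

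The paralogs are diverged in sequence. Aligned over their coding sequences, Ormdl1 was 73.0% identical to both Ormdl2 and Ormdl3, Ormdl2 and Ormdl3 were 75.6% identical, Sptlc2 and Sptlc3 64.2%, and Sptssa and Sptssb 64.5%, over coding lengths of 213 bases for Sptssa, 228 for Sptssb and 459 for each Ormdl gene. Of the 75-base stretches of their transcripts, the length of a read, 0% were shared with another gene for Sptlc1, Sptlc2, Sptlc3 and Sptssb, 0.378% for Sptssa and 2.23% for Ormdl3.

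None of the neighbouring genes on the chromosome passed the threshold. Pms1, a mismatch repair gene that starts 76 bases from Ormdl1 and runs the other way, had 748, 530.4, 467 and 637 in WT and 515, 572 and 833 in KO, overlapping although KO 3 was the highest library (log2 fold change 0.09, SE 0.18; limma adjusted p = 0.815). On the other side, Osgepl1 had 435 ± 51.8 and 436 ± 58.7 (limma adjusted p = 0.995). Ahsa1, a co-chaperone gene next to Sptlc2, had 1814 ± 190.3 and 1748 ± 164 (limma adjusted p = 0.86), and Eapp, next to Sptssa, had 1207 ± 57.4 and 1051 ± 171 (limma adjusted p = 0.386). Of the 16 nearest tested genes that overlap none of the 8, taken on each side, 0 were called by limma, edgeR or DESeq2. In limma 6.71% of all tested genes were called, so 0 of 16 lies near that share. None of the 16 had an unadjusted p under 0.05 in any of the 3. Some were distant or near the floor, such as Bche, 3775867 bases from Sptssb, with at most 3.74 normalised counts in any library.

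Genes with the most similar profile over the 7 libraries were found among 6664 genes with a mean of at least 100 normalised counts, by the root-mean-square difference of centred log2 values. Nearest to Sptlc2 were Fkbp5, a co-chaperone of steroid receptors (difference 0.04; 229 ± 16.5 in WT and 122 ± 15.1 in KO), Ptges3l, Abcb4, a phospholipid transporter, and Vdac2, an outer mitochondrial membrane channel (0.11; 2136 ± 164 and 1108 ± 82.8). The median difference from Sptlc2 was 0.54. Nearest to Ormdl1 were Ube2v2 and Rnf7, both of ubiquitin conjugation, Ogt, the O-GlcNAc transferase (490 ± 33.2 and 829.8 ± 73.8), and Btg1. Nearest to Sptssa were Ppp3cb, a catalytic subunit of calcineurin, AI597479 and Pcmtd1, and a gene whose symbol a spreadsheet had turned into a date. Nearest to Sptssb were Pdzph1 (715 ± 106 and 253 ± 88.9), Cd69, Nlrc4 and Slamf1, at differences of 0.24 to 0.26. These lists follow mainly the contrast between the groups.

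The rest of sphingolipid metabolism was examined with gene lists. Of 42 tested genes beyond SPT, 2 rose and 1 fell in KO (limma), against 6.71% called among all tested genes. The median log2 fold change of the 42 was 0.005, against -0.01 over all tested genes. Of the 9 tested genes in the list for ceramide synthesis after SPT, 0 were called by limma, edgeR or DESeq2, with 1 at an unadjusted p under 0.05 in each (list median log2 fold change -0.06). That gene was Cers4, a ceramide synthase (6.32 ± 2.41 in WT and 17.8 ± 4.24 in KO; limma adjusted p = 0.0567). Degs1, the desaturase that completes ceramide, had 5827 ± 296 and 5477 ± 78.2 (limma adjusted p = 0.697). Cers5, another ceramide synthase, had 581 ± 19.7 and 475 ± 132 (limma adjusted p = 0.256).

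**Figure D4:**
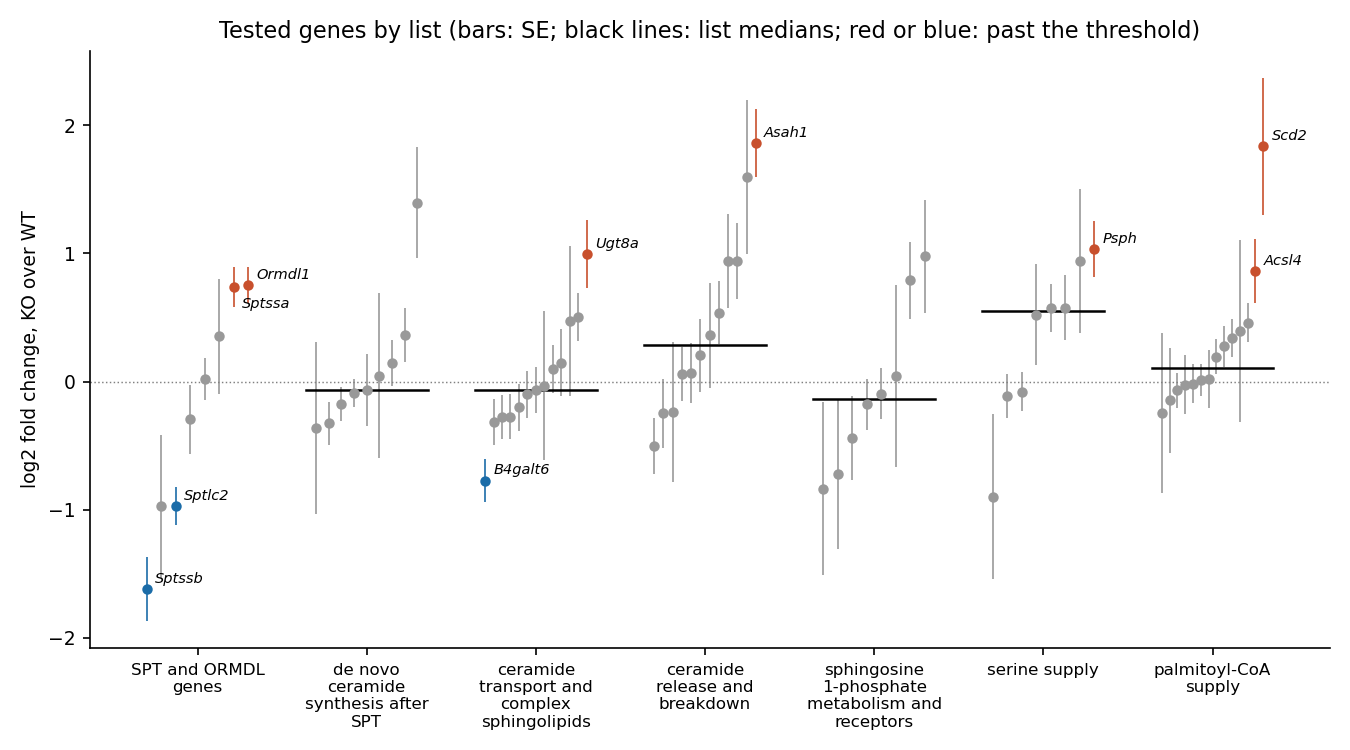
Log2 fold changes, KO over WT, with SE for every tested gene of the SPT group and of 6 lists around it, sorted within each list; black lines are list medians and coloured, named points passed the threshold. The 4 called SPT genes lie on both sides of 0, and most genes of the other lists are grey and near it.

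Among 13 genes that carry ceramide onward or build complex sphingolipids, 1 rose and 1 fell (limma, list median -0.07), and 3 were at an unadjusted p under 0.05. Among all tested genes 3.09% were called higher and 3.63% lower, so the counts of called genes in these short lists lie near the background. B4galt6, a lactosylceramide synthase, had 475, 504, 541 and 469 in WT and 393, 253 and 245 in KO, with KO 1 nearest to WT. It fell by 0.77 on the log2 scale (SE 0.17; limma adjusted p = 0.00852), and by 0.33 when KO 2 and KO 3 were left out. Ugt8a, which makes galactosylceramide, rose from 54.1 ± 21.2 to 105 ± 20.8 (limma adjusted p = 0.0283), a call lost without WT 1, WT 2, WT 4 or KO 3 (adjusted p up to 0.111). Ugcg, which makes glucosylceramide, had 146 ± 22.4 and 208 ± 36.4 (limma adjusted p = 0.116), and Gltp, a glycolipid transfer protein gene, 472 ± 44.8 and 390.2 ± 112 (limma adjusted p = 0.327). Among 12 tested genes of ceramide release and breakdown, Asah1, the lysosomal acid ceramidase, alone was called (limma, list median 0.28), beside 6.71% of all tested genes. In limma 6 of the 12 were at an unadjusted p under 0.05. Every KO library lay above every WT library in 4 of the 12 and below in 1, beside 9.37% and 9.83% of all tested genes. Asah1 had 37.2, 40.5, 24.3 and 23.8 in WT and 95.4, 139 and 110.5 in KO, so KO 1 again lay with the other KO libraries. Its log2 fold change was 1.86, with an SE of 0.26 (limma adjusted p = 0.000482). Acer3, another ceramidase gene, had 41.8 ± 14.8 and 76.6 ± 8.60 (limma adjusted p = 0.0613), and Acer2 2.21 ± 1.66 and 7.46 ± 1.76 (limma adjusted p = 0.116). Of 8 tested genes of sphingosine 1-phosphate metabolism and its receptors 0 were called by limma, edgeR or DESeq2, beside 6.71% of all tested genes in limma. In the 3 methods 2, 2 and 1 of them were at an unadjusted p under 0.05 (list median -0.14). These 2 were the phosphatase gene Sgpp1 (25.4 ± 4.61 and 45.1 ± 11.6; limma adjusted p = 0.119) and the lyase gene Sgpl1 (5.99 ± 0.717 and 13.0 ± 3.70; limma adjusted p = 0.196). Smpdl3a, a sphingomyelinase-like gene, was not tested because fewer than 3 libraries reached a normalised count of 1. It was at 0, 0, 0.935 and 0 in WT and 0.908, 8.18 and 15.3 in KO, higher in the libraries with more granulosa marker RNA. The part of that RNA in these values was not tested.

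On the side of the substrates, 1 of 8 tested genes of serine supply rose (limma; list median 0.55), against 3.09% called higher among all tested genes. It was Psph, which completes serine synthesis, at 53.4, 63.9, 52.3 and 73.7 in WT and 126, 110.0 and 139 in KO (limma adjusted p = 0.00654), with the groups fully separated. In limma 3 of the 8 were at an unadjusted p under 0.05. Every KO library lay above every WT library in 3 of the 8, beside 9.37% of all tested genes. Shmt1, which converts serine and glycine, had 106 ± 9.63 and 159 ± 20.04 (limma adjusted p = 0.072), and Srr, the serine racemase gene, 38.6 ± 3.12 and 58.6 ± 10.8 (limma adjusted p = 0.187). Phgdh, the first enzyme of serine synthesis, had 268 ± 21.5 and 251 ± 54.7 (limma adjusted p = 0.759). Of 14 tested genes in the palmitoyl-CoA supply list 2 rose and 0 fell (limma, list median 0.11), against 3.09% higher and 3.63% lower among all tested genes. In limma 4 of the 14 were at an unadjusted p under 0.05. Every KO library lay above every WT library in 3 of the 14, beside 9.37% of all tested genes. That list also holds elongation and desaturase genes, which do not make palmitoyl-CoA, so its count is not a measure of substrate supply. Acsl4, an acyl-CoA synthetase, had 65.3 ± 17.3 and 119.6 ± 31.4 (limma adjusted p = 0.0389), and Scd2, a desaturase, 4.05 ± 1.60 and 19.3 ± 12.2 (limma adjusted p = 0.0418). In Scd2 the KO values were 6.36, 20.9 and 30.6, and in Acsl4 86.3, 124 and 149, lowest in KO 1 both times, and the part of granulosa RNA in these values was not tested. Each call ended when any 1 of WT 1, WT 2, WT 3, KO 2 and KO 3 was left out, and that of Scd2 also without WT 4 (adjusted p up to 0.154 for Acsl4 and 0.201 for Scd2). With a replicate block Scd2 was not called either (limma adjusted p = 0.0724). Fasn, which makes palmitate, had 75.5 ± 13.7 and 75.8 ± 8.85 (limma adjusted p = 0.976). Hacd3 and Tecr, of fatty acid elongation, had 284 ± 21.1 and 391 ± 43.0 (limma adjusted p = 0.0768), and 1055 ± 93.0 and 1357 ± 321 (limma adjusted p = 0.18). Rtn4, whose Nogo-B product binds and restrains SPT, had 63.5 ± 10.5 and 82.7 ± 15.6 (limma adjusted p = 0.374), and Abca1, a lipid transporter reported to bind SPT, 3.07 ± 3.32 and 0.729 ± 1.26 (limma adjusted p = 0.444). When the granulosa covariate was added, 0 of the 6 called genes of these lists (B4galt6, Ugt8a, Asah1, Psph, Acsl4 and Scd2) passed the threshold in limma. Only 2 of all tested genes passed in that fit. The 6 kept their signs with the covariate, and also when KO 2 and KO 3 were left out. They were chosen on this same contrast, and KO 1 also lay above WT in mean marker level (3.57 against at most 3.53). Nothing is therefore read from the kept signs. In the main fit the log2 fold changes were 1.04 for Psph, 1.86 for Asah1 and 1.00 for Ugt8a. They were 0.86 for Acsl4, 1.84 for Scd2 and -0.77 for B4galt6. Without KO 2 and KO 3 the log2 fold changes were 1.06 for Psph, 1.61 for Asah1, 0.98 for Ugt8a, 0.43 for Acsl4 and 0.61 for Scd2. With the covariate they were 1.26, 1.64, 0.74, 0.34 and 0.54 in that order, and -0.31 for B4galt6.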

How the data were processed

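RNA was measured in 7 libraries of 5 oocytes (4 WT, 3 KO; 75-base paired reads). The submitters' processing notes name cutadapt, FastQC, STAR, DESeq and DESeq2, and GRCm38; no counter is named in the sources used here. The deposited signal values are gene counts that the authors divided by 1 size factor per library: at least 99.9% of the values in each library were within 0.05 of a whole multiple of 1 step, and reads were recovered from that step. The fit used limma 3.58.1 (R 4.3.3, intensity trend, robust variances) on log2(value + 1) over genes that reached 1 in 3 or more libraries, and "called" means Benjamini-Hochberg adjusted p under 0.05 over all 19227. edgeR 4.0.16 and DESeq2 1.42.0 on recovered reads were alternatives and called 1334 and 1474 genes. Rows matched GENCODE M21 by name, and table ends lay 1 base past its ends. Named genes are the 8, called genes of each list with up to 2 more by smallest p, the 4 nearest profiles (pseudogene, Gm-number and Rik names left out), the nearest neighbours and a few others chosen after their values were seen (Degs1, Phgdh, Fasn, Smpdl3a, Nlrp5, Amh, Inha, Inhba and Serpine2). The genes and lists were chosen with earlier results of these data known.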

Additional observations from a re-analysis of the deposited data

Results flagged for a closer look

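In WT, Sptlc1 had 1 library far from the others: WT 1 held 234 normalised counts, while WT 2, WT 3 and WT 4 lay between 291 and 300.4. The log2 fold change of Sptlc1 was 0.02 with this library and -0.07 without it. The WT values of the 8 genes and 6 ratios, 14 sets in all, were examined in this way, and about 1 in 20 such sets is picked out by chance.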

How the results depend on the processing

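Of 19 alternatives, Sptlc2 kept its direction in all and passed the threshold in 17, and Sptssa, Sptssb and Ormdl1 passed in 16, with log2 fold changes of -1.03 to -0.86, 0.62 to 0.80, -1.81 to -1.13 and 0.48 to 0.86. In place of 4 of the 8 genes, 0 were called by limma without trend and robust variances (5 at an unadjusted p under 0.05), 1 without KO 2 and KO 3, and 0 with the granulosa covariate, where 106, 98 and 2 genes were called in all in place of 1291. Leaving out 1 library at a time left 4 called each time, with 594 to 1767 over all genes. Of other sphingolipid genes (3 called), 5 were called with no filter on low values, 1, 0 and 0 under the settings above, and 2 to 5 with 1 library left out. Of supply genes (3 called), 1 was called with CPM scaling, 5 with DESeq2, 0 under each of those 3 settings, and 1 to 3 with 1 library left out. Differences in the log2 ratios, with 1 library left out, were -1.14 to -0.84 (Sptlc2 over Sptlc1), 0.51 to 0.90 (Sptlc3 over Sptlc2), 2.22 to 2.58 (Sptssa over Sptssb), 1.40 to 1.94 (Ormdl1 over Ormdl3), 0.11 to 0.68 (Ormdl1 over Ormdl2) and 1.22 to 1.49 (Ormdl over Sptlc). Adding 0 or 5 in place of 1 gave 2.09 and 1.24 for Ormdl1 over Ormdl3. Of the uncalled genes, Sptlc1, Sptlc3 and Ormdl2 changed sign, and Ormdl3 did not (-1.33 to -0.49 over 18 alternatives). With 1 library left out, log2 fold changes ran from -0.065 to 0.12 for Sptlc1 (below 0 without WT 1, KO 1 or KO 2), from -0.51 to 0.037 for Sptlc3 (above 0 without KO 2) and from -0.040 to 0.71 for Ormdl2 (below 0 without KO 3). Sptlc1 was also below 0 with CPM scaling (-0.0061), and Ormdl2 without KO 2 and KO 3 (-0.35) and with the covariate (-0.66). The causes were not tested. Titles give WT and KO shared numbers, but same-numbered libraries did not deviate together (correlations of -0.12, 0.03 and 0.02). With a replicate block, which leaves WT 4 unpaired, 4 of the 8 genes and 1022 genes in all were called, and the call of Scd2 was lost (limma adjusted p = 0.0724). Depth limits Ormdl2 and Ormdl3, with at most 25 and 7 reads.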
